A study of Homo sapiens with 6 samples.

Results

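The 17q12 window around ERBB2 is a stretch of 2.2 Mb on the long arm of chromosome 17, from 36.5 to 38.7 Mb of hg19. It takes its name from ERBB2, which lies near 37.84 to 37.89 Mb. Its members were all ChIP-seq peaks whose summit, the position of highest signal in the peak, fell between these limits. They numbered 192 of the 35687 peaks in the 3 deposited lists: 56 of 9769 for BRD8 in Calu3, 31 of 9505 for BRD8 in 16HBE14o- and 105 of 16413 for CTCF in Calu3. The comparison was with the rest of 17q (summits from 24 Mb onwards), which held 1587 peaks.

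Each list came from 2 replicates of untreated cells, combined by the authors into 1 set of peaks that ranked alike in both (IDR, the irreproducible discovery rate). Calu3 is a human lung adenocarcinoma line, commonly described as carrying amplified ERBB2, and 16HBE14o- is an immortalised human bronchial epithelial line. Both grew in DMEM with fetal bovine serum, and the labels name the same Active Motif antibody for BRD8 in both lines and a Millipore antibody for CTCF. CTCF was mapped in Calu3 only. DNA copy number was not measured, values of single replicates were not used here, and the depth behind each list is unknown, so every interval below covers counting error between peaks only. Neighbouring peaks are not independent, which makes these intervals too narrow.

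BRD8 belongs to the NuA4/TIP60 complex and carries a bromodomain, a fold that reads acetylated histones; the complex acetylates histones and exchanges histone variants at genes. CTCF is a zinc finger protein that marks insulators and the anchors of chromatin loops. ERBB2 encodes the receptor tyrosine kinase HER2, a partner of the other EGF receptor family members, and gains of DNA around it in epithelial tumours usually include its neighbours. Along the chromosome the 8 genes that name the region stand, in RefSeq order, as SRCIN1, MED1, CDK12, STARD3, PGAP3, ERBB2, GRB7 and IKZF3. SRCIN1 encodes an inhibitor of Src signalling, MED1 a Mediator subunit and CDK12 a kinase of the RNA polymerase II tail. STARD3 encodes a cholesterol transfer protein of late endosomes and PGAP3 an enzyme that remodels GPI anchors. GRB7 encodes an adaptor that binds activated receptors, and IKZF3 a zinc finger factor of lymphoid cells. PGAP3 and MIEN1 are the protein-coding genes next to ERBB2 on either side, and GRB7 lies between MIEN1 and IKZF3. Gene limits in hg19 were at hand for ERBB2 alone and only to the nearest 0.01 Mb, so no peak is assigned to the other 7 genes.

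Neither Calu3 list had a peak within the rounded ERBB2 limits, and the 16HBE14o- list had 1, close to their end. Between a CTCF summit at position 37748890 and the next one at 38487488, no peak of BRD8 or of CTCF was listed in Calu3, over 738.6 kb. That stretch holds the whole of ERBB2 and reaches 91.1 kb beyond its limits on the PGAP3 side and 597.5 kb on the GRB7 and IKZF3 side. In 16HBE14o- the same stretch held 12 BRD8 peaks, or 16.2 per Mb, against 7.02 per Mb in the rest of 17q. The stretch was picked because Calu3 peaks are missing from it, so the count of 0 is a description and was not tested. The control library and any filter behind the Calu3 lists are not given in the sources used here, so sites without binding and sites left out of the lists in processing cannot be told apart in this stretch. The same limit holds for the overlap shares and the ranking of stretches below.

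**Figure D1:**
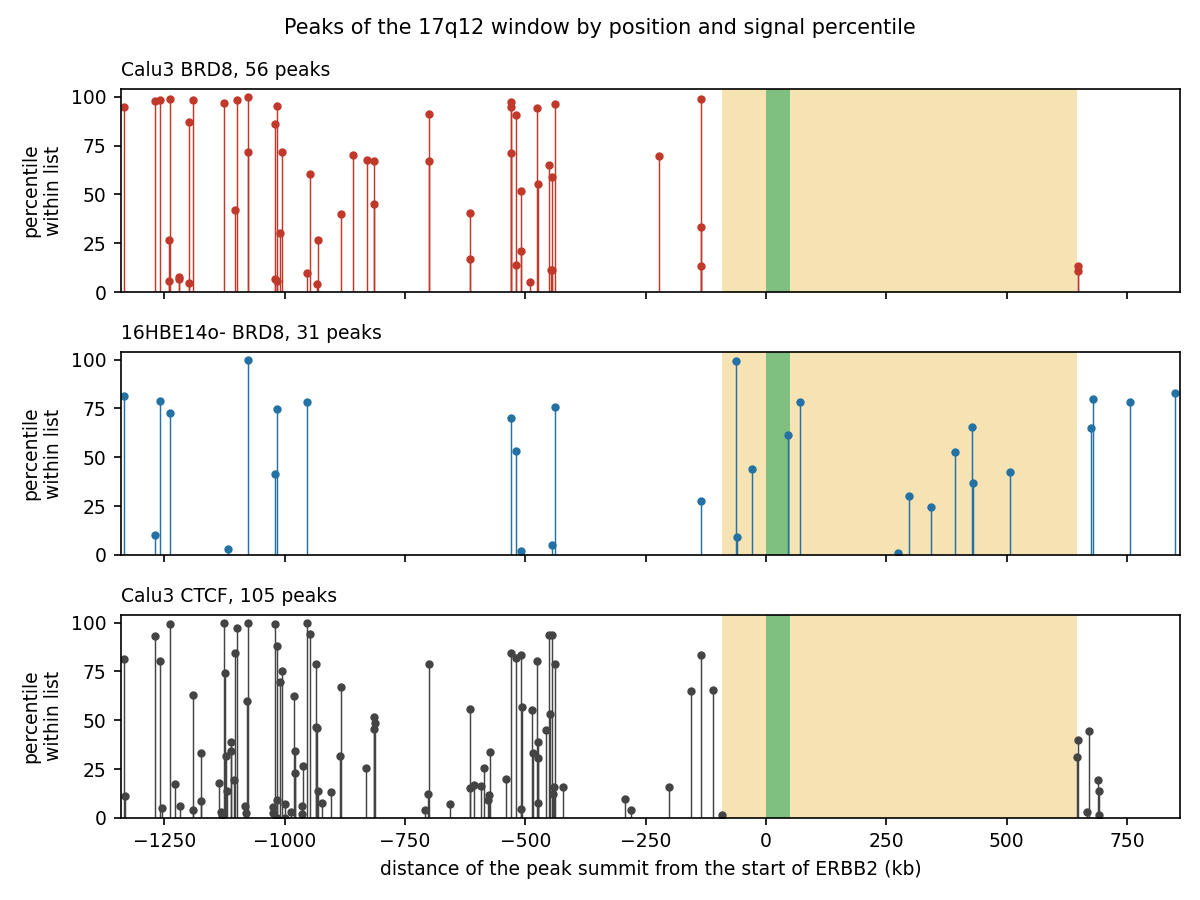
Position of every peak summit of the window, as distance in kb from the start of ERBB2 (x axis), against the percentile of its signal within its own list (y axis, 100 is the strongest end), for the 3 lists. The green band marks the rounded ERBB2 limits and the sand-coloured band the 738.6 kb without a Calu3 peak, in which only the 16HBE14o- panel has points (12 peaks).

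Within the rounded ERBB2 limits 1 peak was listed, in 16HBE14o- (chromosome 17, 37886649 to 37886872). It lies close to their end at 37.89 Mb. Given the rounding, whether it is inside the gene or beyond it on the MIEN1 side cannot be told. Its signal of 32.0 put it at rank 3650 and at percentile 61.6 of that list, where the percentile gives the share of the list with a lower signal. Its nearest Calu3 summits were 181.2 kb away for BRD8 and 137.9 kb away for CTCF. The nearest 16HBE14o- summits outside the rounded limits lay 29.7 kb before them (37810183 to 37810406, percentile 43.8) and 20.6 kb after them (37910519 to 37910742, percentile 78.2). In Calu3 the nearest BRD8 summits lay 134.4 kb before and 597.7 kb after ERBB2, at percentiles 33.6 and 13.1. The CTCF peaks that bound the stretch were weak too, at percentiles 1.50 (37748745 to 37749034) and 31.0 (38487343 to 38487632).

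The strongest 16HBE14o- peak of the stretch stood near the top of its list. It lay on the PGAP3 side of ERBB2 (37778246 to 37778469), with a signal of 83.0 and rank 83 of 9505. Of the 2612 peaks of 16HBE14o- that had no Calu3 summit of either protein within 1 kb anywhere in the genome, 1 was stronger. The other 11 peaks of the stretch ran from percentile 1.06 to 78.2, and the median of all 12 was 43.0. They lay in a group of 5 at and before 37.91 Mb and a group of 7 from 38.12 to 38.35 Mb.

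A small share of the intervals between Calu3 summits was longer than this stretch, and only 1 interval held more 16HBE14o- peaks. Among 1361 intervals between neighbouring Calu3 summits (both proteins) on 17q, 8 were longer than 738.6 kb, and these 8 held 0 to 3 of the 16HBE14o- peaks each. No other interval on 17q held more than 4. Over all chromosomes 717 of 26159 intervals were longer, and 1 of them held more 16HBE14o- peaks, with 18.

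On the SRCIN1 side of this stretch the picture was the opposite. From 36.5 Mb to the last Calu3 summit before it, a segment of 1.25 Mb, 54 Calu3 BRD8 peaks and 98 CTCF peaks were listed, or 43.2 and 78.5 per Mb. The rest of 17q had 8.31 and 13.5 per Mb. 16HBE14o- BRD8 had 15 peaks in that segment, or 12.01 per Mb, fewer per Mb than in the stretch without Calu3 peaks. Beyond the stretch, over the last 0.212 Mb of the window, there were 2 Calu3 BRD8 peaks, 7 CTCF peaks and 4 from 16HBE14o-. The segments were drawn after the values were seen. In steps of 200 kb, CTCF was densest from 36.7 to 36.9 Mb, with 35 peaks, where Calu3 BRD8 had 13 and 16HBE14o- BRD8 5. Calu3 BRD8 was densest from 37.3 to 37.5 Mb, with 15 peaks beside 20 for CTCF and 5 for 16HBE14o-. From 36.9 to 37.3 Mb, 16HBE14o- had none, where Calu3 had 11 BRD8 and 24 CTCF peaks.

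Over the whole window the density of peaks was higher than on the rest of 17q in each list, though 1 interval included 1 under a narrower window. For Calu3 BRD8 it was 25.5 against 8.31 peaks per Mb, a ratio of 3.06 (95% exact interval 2.28 to 4.05). For 16HBE14o- BRD8 it was 14.1 against 7.02 per Mb, a ratio of 2.01 (1.34 to 2.90), and for CTCF 47.7 against 13.5 per Mb, a ratio of 3.53 (2.85 to 4.33). With the window narrowed by 500 kb at each end the 16HBE14o- ratio, over 14 peaks, was 1.62 (0.878 to 2.75) and its interval included 1. Peaks are unevenly spread along 17q, so the window was also set among 25 consecutive windows of the same length. None held more Calu3 BRD8 peaks, and 1 held as many (56). None held as many CTCF peaks, the next having 70. For 16HBE14o- BRD8, 2 windows held more, with 33 each. The medians of the other windows were 14 for Calu3 BRD8, 14 for 16HBE14o- BRD8 and 23.5 for CTCF.

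**Figure D2:**
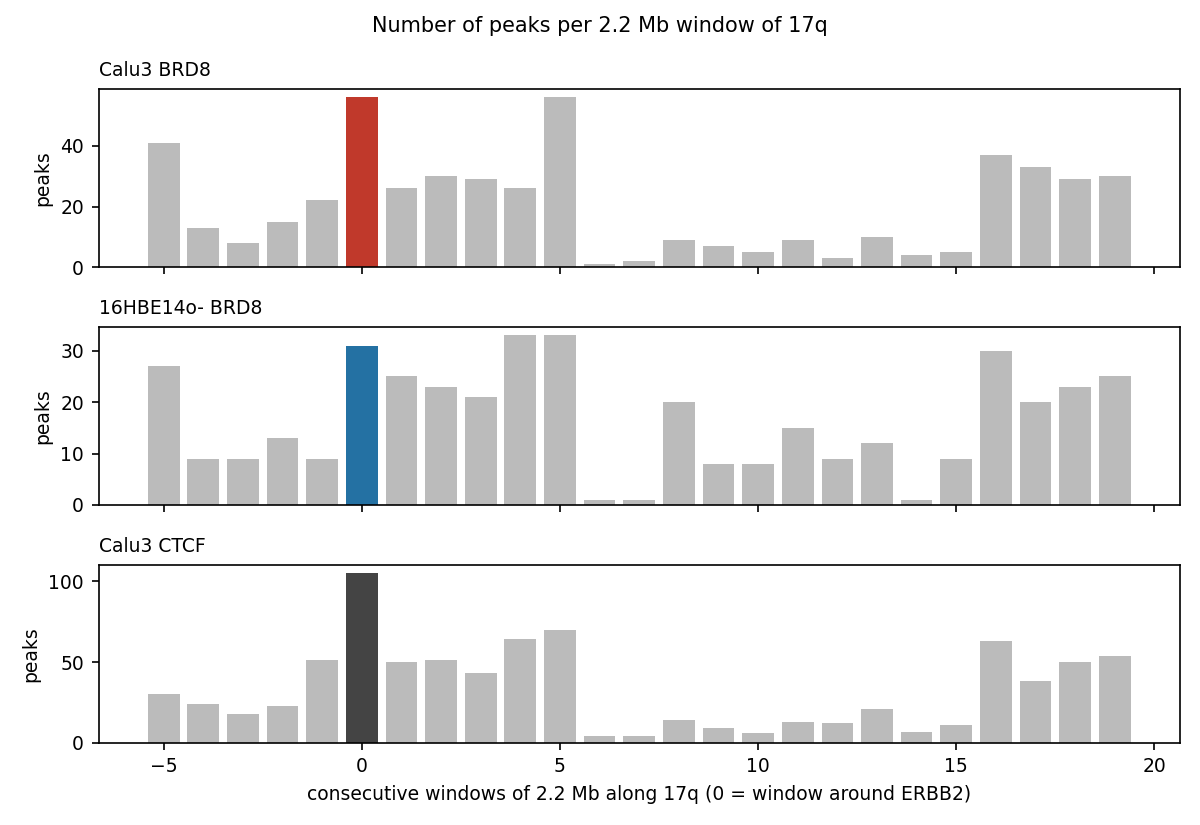
Number of peaks of each list (y axes, from 0) in 25 consecutive windows of 2.2 Mb along 17q (x axis, 0 is the window around ERBB2, in colour). The window holds 56 Calu3 BRD8, 31 16HBE14o- BRD8 and 105 CTCF peaks, and it stands alone at the top only for CTCF.

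The lists were then compared with each other. Of the 17q peaks of a list, the window took 10.9% for Calu3 BRD8, 7.43% for 16HBE14o- BRD8 and 12.4% for CTCF. The odds ratio of Calu3 over 16HBE14o- BRD8 was 1.52, and its exact interval of 0.945 to 2.50 includes 1, so against the rest of 17q a difference between the lines in the number of BRD8 peaks was not shown. Against all other peaks of the genome the odds ratio was 1.76 (1.11 to 2.83), which excludes 1. CTCF over 16HBE14o- BRD8 gave 1.76 (1.14 to 2.77) and CTCF over Calu3 BRD8 1.15 (0.807 to 1.66). The odds ratio of CTCF over 16HBE14o- BRD8 was lost without weak CTCF peaks, at 0.965 (0.520 to 1.85) in the upper 50% of each list by signal and 1.05 (0.630 to 1.76) with lists of equal length. With the narrowed window it was 1.53 (0.812 to 3.08).

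Over the whole list, CTCF peaks of the window were weaker than those of the rest of the arm. Their median percentile was 31.0 (quartiles 9.25 and 65.6), against 58.8 (31.4 and 79.3) on the rest of 17q, a difference of -27.8 points (interval from order statistics -42.2 to -14.2). The direction turned in the upper 50% of the list, at 5.39 points (-5.49 to 9.17), and with lists of equal length, at 10.3 points (-13.3 to 18.0), both with intervals on either side of 0, so the difference rests on weak peaks. Of 20 windows of 17q with at least 10 CTCF peaks this one had the lowest median, the next being at 41.7. The weakest 10% of the CTCF list supplied 28 of the 105 peaks (26.7%), against 75 of 744 (10.1%) on the rest of 17q. For BRD8 the medians were 59.7 (13.6 and 92.1) against 51.6 in Calu3 and 61.6 (29.0 and 78.3) against 59.1 in 16HBE14o-. These differences, 8.16 points (-18.0 to 19.9) and 2.47 points (-22.5 to 16.4), had intervals on both sides of 0.

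By quartiles, Calu3 BRD8 peaks of the window were spread wider over their list (13.6 and 92.1) than those of the rest of 17q (25.95 and 78.09). The strongest 10% of the list supplied 16 of the 56 (28.6%), against 55 of 457 (12.04%) on the rest of 17q, and the weakest 10% supplied 9 (16.1%, against 9.85%). In 16HBE14o- the strongest 10% supplied 2 of 31 peaks (6.45%, against 12.7%) and the weakest 10% 5 (16.1%, against 5.96%). The higher share at the weak end was thus seen in both BRD8 lists and rests on 9 and 5 peaks. No interval was computed for these shares, and Calu3 peaks that overlap each other were counted singly.

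The density was therefore taken apart by strength, a division made after the values were seen. In the weakest 25% of the CTCF list the window held 48 peaks, and its density was 8.16 times that of the rest of 17q (5.77 to 11.4). In the next 25% up the ratio was 3.62 (2.17 to 5.74), then 1.44 (0.757 to 2.52), and in the strongest 25% it was 2.53 (1.57 to 3.90). For Calu3 BRD8 the strongest and weakest 25% had the higher ratios, 3.66 (2.10 to 6.03) and 3.83 (2.15 to 6.41), with 2.95 and 1.77 between them. For 16HBE14o- BRD8 the 4 ratios ran from 1.55 to 2.46, each with an interval that includes 1.

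**Figure D3:**
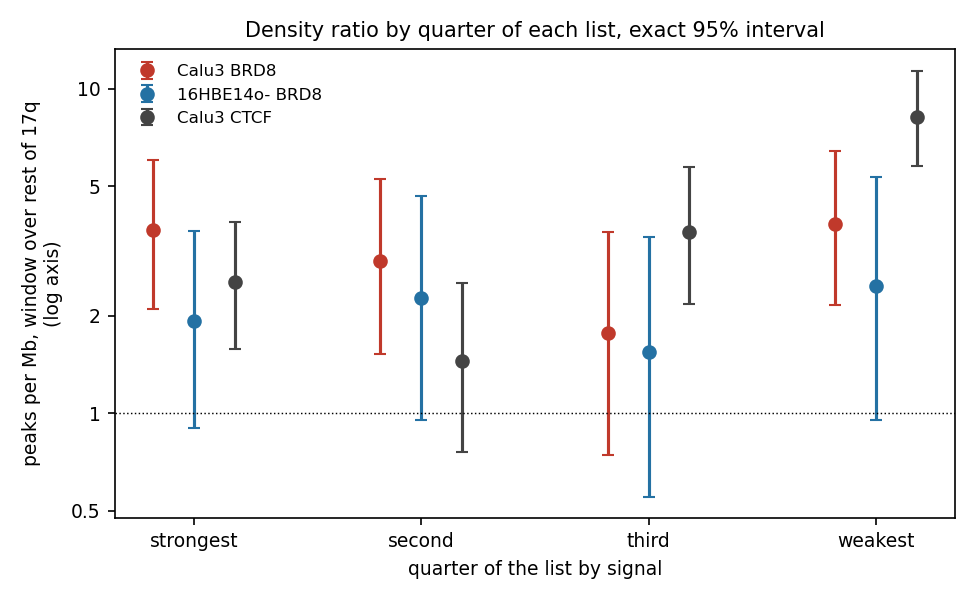
Ratio of peaks per Mb in the window to peaks per Mb in the rest of 17q (y axis, log scale) for each 25% of each list by signal (x axis, 4 parts). Points are ratios and bars exact 95% intervals; the CTCF point of the weakest part, at 8.16, lies above all the others.

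Overlap between the lists was counted from 1 bp. In 3 of the 4 comparisons that involve 16HBE14o- it was lower in the window than on the rest of 17q. The intervals of these 3 odds ratios do not include 1, while those of the 2 comparisons within Calu3 do. Of the 3, the share of 16HBE14o- BRD8 peaks at CTCF is not a result apart from the stretch without Calu3 peaks. Of the 31 BRD8 peaks of 16HBE14o-, 14 overlapped a Calu3 CTCF peak (45.2%, exact interval 27.3 to 64.0%), against 294 of 386 (76.2%, 71.6 to 80.3%) on the rest of 17q and 65.3% of the whole list. The odds ratio of window over rest was 0.259 (0.113 to 0.582). All 14 lay before the stretch without Calu3 peaks, where 15 peaks were listed. The 4 beyond the stretch had no CTCF peak. The 12 within it could have none, since the stretch was picked for lacking Calu3 peaks. Of the same 31 peaks 13 overlapped a Calu3 BRD8 peak (41.9%, 24.6 to 60.9%), against 57.5% on the rest of 17q and 43.4% of the whole list, with an odds ratio of 0.534 (0.234 to 1.19) that includes 1. All 13 lay before the stretch, and the 12 peaks within it could overlap no Calu3 BRD8 peak either.

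Seen from Calu3, 17 of 56 BRD8 peaks were also called in 16HBE14o- (30.4%, 18.8 to 44.1%), against 259 of 457 (56.7%, 52.0 to 61.3%) on the rest of 17q and 50.1% of the whole list. The odds ratio was 0.334 (0.172 to 0.625). By a reciprocal overlap of at least 50% the shares were 3.57% and 6.57%, and the odds ratio of 0.528 (0.0595 to 2.18) includes 1. With CTCF of the same line, 39 of 56 overlapped (69.6%, 55.9 to 81.2%), against 78.1% on the rest of 17q and 70.5% of the whole list, and the odds ratio of 0.643 (0.338 to 1.27) includes 1. The share at CTCF was thus near that of the whole list.

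CTCF peaks of the window overlapped 16HBE14o- BRD8 less often than those of the rest of 17q, over the whole lists. Of 105, 14 overlapped a 16HBE14o- BRD8 peak (13.3%, 7.49 to 21.4%), against 296 of 744 (39.8%, 36.2 to 43.4%) on the rest of 17q and 38.0% of the whole list, an odds ratio of 0.233 (0.120 to 0.421). A Calu3 BRD8 peak met 36 of them (34.3%, 25.3 to 44.2%), against 41.4% on the rest of 17q and 36.1% of the whole list, an odds ratio of 0.739 (0.467 to 1.15). In the upper 50% of each list both results changed. The share with 16HBE14o- BRD8 was 25% (12.1 to 42.2%) against 39.4%, and its odds ratio of 0.514 (0.207 to 1.16) includes 1. The share with Calu3 BRD8 was 55.6% (38.1 to 72.1%) against 40.9%, an odds ratio of 1.80 (0.861 to 3.83). Over the whole lists the odds ratio with Calu3 BRD8 stayed below 1 under stricter overlap. Its interval excluded 1 by the reciprocal rule, at 0.552 (0.304 to 0.952), and with summits within 100 bp, at 0.603 (0.367 to 0.967). With every peak set to 200 bp around its summit it was 0.653 (0.406 to 1.03), which includes 1. By class, BRD8 of both lines was listed at 13 of the 105, BRD8 of Calu3 but not 16HBE14o- at 23, the reverse at 1, and no BRD8 at 68. The median CTCF percentile was 84.2 with both lines, 56.0 with Calu3 alone and 15.7 with no BRD8. The class with no BRD8 made up 64.8% here, against 46.6% on the rest of 17q, where its median percentile was 38.7. Its share over the whole list was not counted.

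The single CTCF peak with BRD8 of 16HBE14o- alone was among the strongest of the window (36886235 to 36886559, rank 54 of 16413, signal 306.1). BRD8 there was at percentile 78.5 in 16HBE14o-, with summits 42 bp apart, and the nearest Calu3 BRD8 summit lay 0.513 kb away.

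At sites where all 3 lists had a peak, BRD8 ranked higher in Calu3 than in 16HBE14o- without exception. There were 13 such sites, taking for each 16HBE14o- peak the Calu3 peak of nearest summit, and all 13 lay before the stretch without Calu3 peaks. Their median percentile was 96.3 in Calu3 and 70.2 in 16HBE14o-. The paired difference ran from 0.39 to 87.5 points with a median of 25.9. On the rest of 17q, 117 of 204 such sites (57.4%) ranked higher in Calu3, with a median difference of 2.60 points. Counting every Calu3 peak that overlapped a 16HBE14o- peak, 13 of 17 ranked higher, with a median of 20.1 points (0.39 to 37.7), and 132 of 259 (51.0%) with a median of 0.268 on the rest of 17q. With the narrowed window 7 such peaks were left, with a median of 27.0 points and an interval of -39.6 to 71.0 that includes 0. The 4 exceptions were further Calu3 peaks at 16HBE14o- peaks that already had a closer Calu3 summit.

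**Figure D4:**
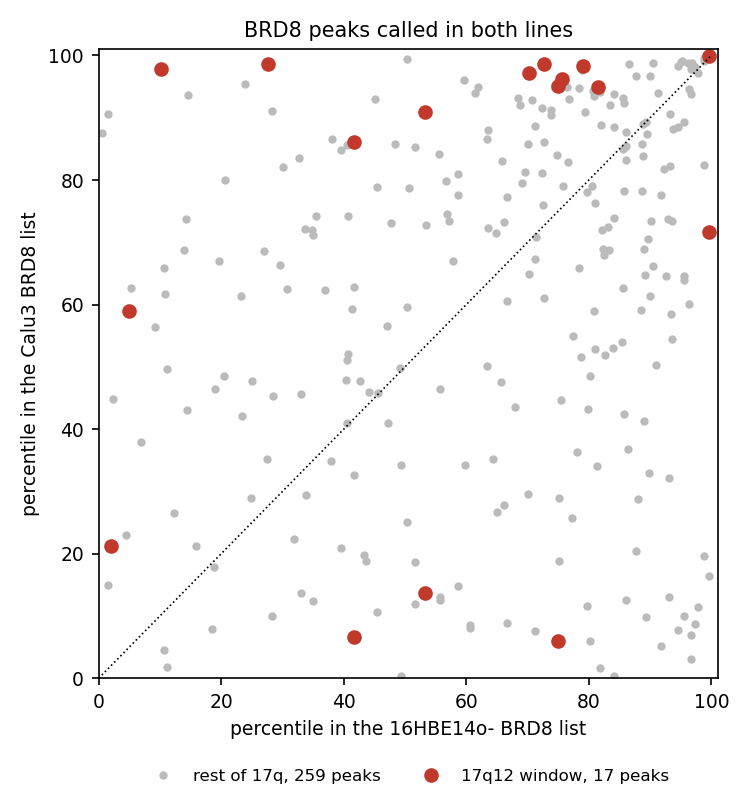
Percentile of each Calu3 BRD8 peak in its list (y axis) against that of the 16HBE14o- BRD8 peak it overlaps (x axis), for 17 peaks of the window (red) and 259 of the rest of 17q (grey); the dotted line marks equal percentiles. Of the red points 13 lie above the line and 4 below it.

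The site of the largest difference lay at 36570902 to 36571377. BRD8 there ranked 217 in Calu3, with signal 116.1, and 8531 in 16HBE14o-, with signal 21.4, although the summits were 4 bp apart. CTCF was at percentile 93.0. The scale of the signal is not stated, so signals of different lists, here and below, cannot be compared. The site nearest to ERBB2 followed (37703982 to 37704457), at rank 131 in Calu3 and 6877 in 16HBE14o-, a difference of 71.0 points, with CTCF at percentile 83.2. The next, at 37395808 to 37396283, stood at percentile 59.0 in Calu3 and 5.01 in 16HBE14o-, with CTCF at 93.8. The smallest differences were at 36762544 to 36763028 (0.39 points), 36504959 to 36505434 (13.5 points) and 36580013 to 36580156 (19.2 points).

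CTCF percentiles were also set against BRD8 percentiles at the same sites. The CTCF list holds 16413 peaks and the 16HBE14o- BRD8 list 9505, so their percentiles are not on 1 scale. The rest of 17q therefore serves as the reference. At all 14 CTCF peaks of the window that overlapped a 16HBE14o- BRD8 peak, the CTCF percentile exceeded the BRD8 percentile, by a median of 23.9 points. On the rest of 17q it did so at 205 of 296 (69.3%), by a median of 9.34 points. Of the 14, 13 also had BRD8 of Calu3, so the same 16HBE14o- percentiles enter the comparison between the lines above. Against Calu3 BRD8 the CTCF percentile was higher at 18 of 36 peaks, with a median difference of -0.41 points, and at 186 of 308 (60.4%) on the rest of 17q. BRD8 and CTCF summits lay a median of 46 bp apart in Calu3 (quartiles 13.5 and 114, 39 peaks) and 16.5 bp apart for 16HBE14o- BRD8 (6.75 and 26.8, 14 peaks), beside 39 and 15 bp on the rest of 17q.

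The window includes the CTCF peak of highest signal in the whole list (36762643 to 36763014, signal 388.2), towards the SRCIN1 end of the window. BRD8 ranked 3 there in Calu3, with signal 310.5, and 40 in 16HBE14o-, with signal 95.5, and it was the strongest peak of the window in all 3 lists. The next strongest CTCF peaks lay at 36714361 to 36714660 (rank 27), 36886235 to 36886559 (rank 54), 36600424 to 36600641 (rank 98) and 36819446 to 36819677 (rank 132). Calu3 BRD8 was listed at those of CTCF rank 27, 98 and 132, at BRD8 ranks 303, 129 and 1354. BRD8 of 16HBE14o- was listed at those of CTCF rank 54, 98 and 132, at ranks 2039, 2592 and 5552.

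After the top site, the Calu3 BRD8 peaks of highest signal were those at 36600429 to 36600649 (rank 129), 37703982 to 37704457 (rank 131), 36648333 to 36648587 (rank 140) and 36740699 to 36740876 (rank 169). The last 2 were also the strongest with no 16HBE14o- BRD8 peak, their nearest 16HBE14o- summits being 47.9 and 18.2 kb away, and the peak at 36714289 to 36714764 (rank 303) came after them. All 3 overlapped CTCF, at percentiles 63.1, 97.4 and 99.8. In 16HBE14o- the peaks at ranks 40 and 83 were followed by those at 38689643 to 38689866 (rank 1624), 36505064 to 36505287 (rank 1766) and 38518887 to 38519110 (rank 1918). Only the peak at rank 1766 had a Calu3 peak of either protein. The 3 strongest 16HBE14o- peaks with no Calu3 BRD8 peak thus lay at 37.78, 38.52 and 38.69 Mb, in or beyond the stretch that holds ERBB2.

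BRD8 peaks of 1 line with no CTCF peak were also counted, and their strength was not compared by any test. In Calu3 17 of 56 peaks (30.4%) were in neither other list, at a median percentile of 13.5, against 79 of 457 (17.3%) at 27.5 on the rest of 17q. In 16HBE14o- 17 of 31 (54.8%) were so, at a median percentile of 52.8, against 74 of 386 (19.2%) at 33.6. Shares of this class over the whole lists were not counted. The BRD8 overlap shares given above were higher on the rest of 17q than over the whole lists. Of these 17, 12 lay in the stretch picked for having no Calu3 peak and 4 beyond it. The higher share in 16HBE14o- is therefore not a result apart from that stretch. No peak of the window was shared by the lines without CTCF. Where Calu3 peaks overlapped their neighbours they were merged, which left 46 BRD8 and 98 CTCF regions, while the 31 peaks of 16HBE14o- stayed apart.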

How the data were processed

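The deposited files were 3 narrowPeak lists. Per the file headers they are on hg19, and per the series' design text the authors combined 2 replicates into each by IDR. The aligner, peak caller, control library and IDR settings are not given in the sources used here. The deposited signal, on a scale not stated, served for ranks within a list and was not compared between lists. The authors' score columns and a column of -1 were left out. Of the other kind of number deposited, the summit's distance from the peak start gave its position. The members and gene lists were chosen with earlier results of these data known.

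Shares have exact Clopper-Pearson intervals, density ratios exact intervals from the binomial division of peaks by length, odds ratios (conditional) exact intervals, and medians intervals from order statistics, all at 95%. No p-value was computed, since a list is 1 pooled value. Chromosome lengths came from GenomeInfoDb 1.38.1, with unsequenced gaps not subtracted. Named peaks followed a written rule: the 5 strongest per list, the 3 sites of all lists that differed most between the lines in each direction (none ranked higher in 16HBE14o-, so the 3 smallest differences stand there), the 3 strongest of each BRD8 list without the other line, and those nearest ERBB2. RefSeq on GRCh38.p14 gave gene order only, for 8 of 8 named genes and 37 of 37 others of the region. Software was Python 3.11.15, scipy 1.17.1, numpy 2.4.6, pandas 2.3.3 and matplotlib 3.10.9. The code was tested on simulated data and gave the same overlaps as bedtools 2.31.1.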

Additional observations from a re-analysis of the deposited data

Results flagged for a closer look

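The odds ratio of window against rest of 17q was 1.76 for Calu3 CTCF over 16HBE14o- BRD8, with an exact interval of 1.14 to 2.77 that does not include 1. It is listed here because these lists divided their 17q peaks differently between the window and the rest. The lists differ in both protein and cell line, which cannot be told apart in this comparison, and the ratio was 0.965 among the upper 50% of each list, 1.05 with lists of equal length and 1.53 with the narrowed window, each with an interval that includes 1.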

How the results depend on the processing

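Of 127 values under alternatives, 106 stayed within the interval of the reported value. With all other peaks of the genome as the reference, the density ratios were 7.95 for Calu3 BRD8, 4.51 for 16HBE14o- BRD8 and 8.88 for CTCF, and the odds ratio of Calu3 over 16HBE14o- BRD8 came to exclude 1, at 1.76. The CTCF density ratio was 1.99 in the upper 50% of each list, 2.10 with lists of equal length, 2.49 with the window narrowed by 500 kb at each end and 2.81 with it widened. The upper 50% and equal lengths both remove weak CTCF peaks. Under them the CTCF percentile difference turned to 5.39 (-5.49 to 9.17) and 10.3 points (-13.3 to 18.0), the odds ratio of CTCF over 16HBE14o- BRD8 was 0.965 and 1.05, and that of CTCF over Calu3 BRD8 0.599 and 0.675, all with intervals that include no difference. The narrowed window gave 16HBE14o- BRD8 a percentile difference of -22.8 points (-54.9 to 15.7), and under it the intervals of that list's density ratio and of the odds ratio of CTCF over 16HBE14o- BRD8 came to include 1. In the upper 50%, CTCF peaks met BRD8 at 55.6% in Calu3, against 40.9% on the rest of 17q, and at 25% in 16HBE14o-, against 39.4%. A reciprocal overlap of at least 50% gave, window against rest, 33.9% and 45.7% for Calu3 BRD8 at CTCF, 3.57% and 6.57% for Calu3 at 16HBE14o- BRD8, 6.45% and 7.51% in the reverse, and 17.1% and 27.3% for CTCF at Calu3 BRD8. Peak widths differ between the lists. Summits within 100 bp gave 50% and 61.3% for Calu3 BRD8 at CTCF. The paired percentile difference ran from 20.0 to 27.0 points in 10 alternatives; the 27.0 came from 7 peaks of the narrowed window with an interval that includes 0, and the reciprocal rule left 2 peaks. The share of 16HBE14o- BRD8 peaks at CTCF kept an odds ratio below 1, with its interval, in all 9 alternatives run. Each of these kept peaks of the stretch picked for having no Calu3 peak, which cannot overlap CTCF. The alternatives therefore do not test this share apart from that stretch. The reference without the 2 Mb beside the window was added after the data were seen. No paired analysis was possible because each experiment is deposited as 1 pooled list, and leaving out a replicate was not possible for the same reason. Depth is unknown, so a site with no listed peak is not shown to be unbound.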

Other observations

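The stretch around ERBB2 was 1 of 6 between neighbouring Calu3 summits that held at least 10 BRD8 peaks of 16HBE14o- anywhere in the genome. Chromosome 11 had 2 of the others, from 98886781 to 101307622 with 18 peaks (7.43 per Mb) and from 102217926 to 102604194 with 10 (25.9 per Mb). Chromosome 6 also had 2, from 128841882 to 131081382 with 11 and from 137144015 to 138188283 with 10. The last lay on chromosome 18, from 3995700 to 6482768, with 10. By peaks per Mb the ERBB2 stretch, at 16.2, came after the shorter one on chromosome 11.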
